A study of Mus musculus with 5 samples.

Results

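Oxidative phosphorylation genes were measured in single plasma cells of mouse spleen and bone marrow. The members were taken by symbol: nuclear genes beginning with Nduf, Uqcr, Atp5, Cox4i, Cox5, Cox6, Cox7 or Cox8, and mitochondrial genes beginning with mt-Nd, mt-Co, mt-Cytb or mt-Atp. This gave 102 genes of the 33456 in the count tables, 89 nuclear and 13 mitochondrial, each with a level in every library. The study held 5 libraries of plasma cells with high CD138, sorted without Ly6g or CD11c, from unimmunized, untreated male C57Bl6/N mice aged 8 to 12 weeks, with cells of 3 mice pooled for each library. B220 is a surface form of CD45 that plasma cells lose as they mature, and 2NBDG is a fluorescent glucose analogue that marks cells that took it up. The groups were bone marrow B220-2NBDG+ cells, splenic B220+2NBDG+ cells, splenic B220-2NBDG+ cells, splenic B220+2NBDG- cells and splenic B220-2NBDG- cells, with 1 library each.

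The respiratory chain moves electrons from nutrients to oxygen and pumps protons across the inner mitochondrial membrane, and ATP synthase lets the protons back to make ATP. Complex I takes electrons from NADH, complex III passes them to cytochrome c, and complex IV, the oxidase, gives them to oxygen. Most subunits are encoded in the nucleus and imported, while a small core set is encoded and translated inside the mitochondrion, so that each complex except the nuclear-encoded complex II needs both genomes. Plasma cells secrete antibody continuously, and pyruvate made from glucose can feed this chain.

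The libraries held 894 to 1296 cell barcodes and 9451886 to 15591435 unique molecules (UMIs), and immunoglobulin genes took 46.8% to 64.8% of these. Levels are therefore given as CPM, counts of a gene scaled to a common total of UMIs outside immunoglobulin genes, over 3939335 to 6624765 such UMIs per library. Jchain, the joining chain of IgM and IgA, took 10.0% of these UMIs in the splenic B220+2NBDG- library, against 19.4% to 29.7% elsewhere, so a level is a share that moves with Jchain. The 8 plasma cell markers were present in every library and summed to between 115800 and 306300 CPM. These sums ranked the libraries as the Jchain shares did. The 7 B cell markers summed to 11470 to 15650 CPM and the 6 macrophage markers to 24.1 to 39.6 CPM. Dendritic cell markers summed to 6.39 to 16.3 CPM, and neutrophil, erythroid and natural killer markers each to at most 3.37 CPM. The 6 T cell markers summed to at most 5.86 CPM after 25 T cell-like cells were left out. Those cells were called by T cell markers, so the low T cell sum does not measure purity. Cells that carried cell cycle transcripts were unevenly spread, 165 of them among splenic B220+2NBDG- cells, while elsewhere a library held 0 to 16. With 1 library per group no test between libraries can be made, and a fold carries a 95% interval that covers counting error only. Of the 5476 barcodes, 11 occurred in more than 1 library.

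Of the 102 members, 91 reached a mean of 10 CPM over the libraries, 79 nuclear and 12 mitochondrial. The 36 complex I subunits and the 8 complex III subunits all did, as did 6 of 8 complex I assembly factors, 13 of 20 complex IV genes and 16 of 17 ATP synthase genes. Complex IV is the complex with tissue isoforms, and most of those usually tied to muscle, testis or lung were at or near 0: Cox8b was at 0 UMIs in all 5 libraries, and Cox7a1, Cox6b2, Cox7b2 and Cox8c stayed at or under 1.21 CPM. The ubiquitous partner isoforms were all well measured. Cox4i1 lay between 810 and 1003 CPM, Cox6a1 between 445 and 731, Cox6b1 between 463 and 657, Cox7a2 between 390 and 644 and Cox8a between 553 and 765. The exception among tissue isoforms was Cox6a2, the heart and skeletal muscle form of subunit 6a, which reached 109 CPM. Atp5l, Atp5g2 and mt-Atp8 were kept out of all counts and medians, since their levels split the 5 libraries the same way (values below), which left 77 nuclear and 11 mitochondrial members for the library comparisons.

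The sequences of the overlapping mitochondrial frames are shown because they bear on how reads near those genes can be counted. mt-Atp8 lies at chrM:7766-7969 on the + strand of GRCm38, and its last 43 of 204 bases are also the first bases of mt-Atp6, at chrM:7927-8607, with which it shares a transcript. mt-Nd4l, at chrM:9877-10173, likewise overlaps mt-Nd4, at chrM:10167-11544, by 7 bases. Capitals mark the bases that belong to both frames, in the whole of mt-Atp8 and in the last 30 bases of mt-Nd4l, from GENCODE M21 transcripts.
mt-Atp8: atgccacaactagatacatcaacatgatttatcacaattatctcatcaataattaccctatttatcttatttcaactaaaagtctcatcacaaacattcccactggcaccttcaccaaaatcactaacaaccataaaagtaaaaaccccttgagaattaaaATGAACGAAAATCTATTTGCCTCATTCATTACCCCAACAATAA
mt-Nd4l: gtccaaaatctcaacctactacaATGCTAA

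mt-Atp8, a small ATP synthase subunit, stood at 343 CPM in bone marrow B220-2NBDG+ cells, 310 in splenic B220+2NBDG+ cells, 116 in splenic B220-2NBDG+ cells, 75.5 in splenic B220+2NBDG- cells and 850 in splenic B220-2NBDG- cells. It was low in splenic B220-2NBDG+ and splenic B220+2NBDG- cells. mt-Atp6, the proton channel subunit encoded on the same transcript, varied far less, from 7549 to 9034 CPM. mt-Nd4l stood at 275, 207, 156, 99.9 and 202 CPM in the same order of libraries, lowest in the same pair, while its downstream neighbour mt-Nd4 lay between 1368 and 1718 CPM.

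Atp5l, subunit g of ATP synthase (chr9:44912557-44920742, - strand), stood at 269 CPM in bone marrow B220-2NBDG+ cells, 283 in splenic B220+2NBDG+ cells, 61.4 in splenic B220-2NBDG+ cells, 85.0 in splenic B220+2NBDG- cells and 311 in splenic B220-2NBDG- cells. The processed pseudogene Gm10221 is identical along its whole 309 bases to a stretch of the Atp5l transcript. Gm10221 stood at 65.5, 58.9, 138, 191 and 68.8 CPM in the same order of libraries, and was highest in the pair in which Atp5l was lowest. Atp5g2, which encodes the membrane ring subunit c together with Atp5g1 and Atp5g3 (chr15:102662864-102672352, - strand), stood at 140, 163, 26.9, 33.4 and 190 CPM. All 645 bases of Gm10175 are found in the Atp5g2 transcript, and Gm10175 stood at 45.6, 43.9, 25.6, 76.8 and 48.6 CPM. Atp5g1, at 402 to 708 CPM, and Atp5g3, at 154 to 248 CPM, showed no such split. Summed with its partner, Atp5l came to 334, 342, 199.5 and 276 CPM in the first 4 libraries of that order and 380 CPM in splenic B220-2NBDG- cells, and Atp5g2 to 186, 207, 52.5, 110 and 238 CPM, so the same pair of libraries was lowest in the sums too. Why these genes split the libraries was not tested. Other genes split them too. In the same order of libraries, Cox16 stood at 83.2, 102, 34.3, 44.7 and 114 CPM and Cox17 at 340, 335, 508, 465 and 282 CPM. Among members, Atp5k was highest in the same pair, at 251, 295, 325, 376 and 218 CPM. Each of the 5 library comparisons crosses the split, so folds of Atp5l, Atp5g2 and mt-Atp8 are not read as differences between cells. mt-Nd4l and Atp5k stay in the counts, and the part of the split in their folds was not tested. Atp5h also shares up to 239 bases in a row with a pseudogene, Gm10250. In the same order Gm10250 stood at 76.5, 67.4, 100.5, 219 and 83.8 CPM, highest in the same pair, so the level of Atp5h is uncertain too.

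**Figure D1:**
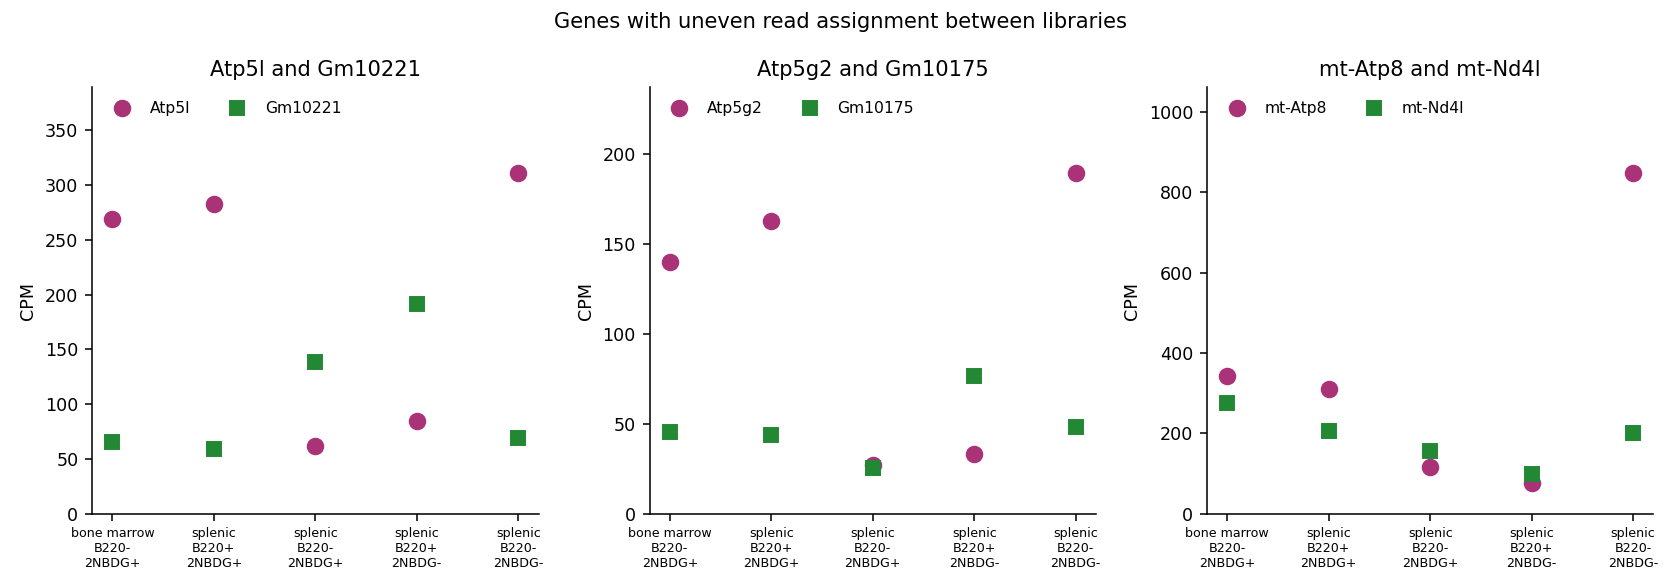
CPM (vertical axis, linear) of Atp5l with Gm10221, Atp5g2 with Gm10175, and mt-Atp8 with mt-Nd4l in each of the 5 libraries (1 point per gene and library, no replicates). Atp5l, Atp5g2 and mt-Atp8 are all low in splenic B220-2NBDG+ and splenic B220+2NBDG- cells, and Gm10221 is at its highest there, 138 and 191 CPM.

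The libraries differed in the balance between nuclear and mitochondrial transcripts. The 77 nuclear members summed to 21406 CPM in bone marrow B220-2NBDG+ cells, 24277 in splenic B220+2NBDG+ cells, 22373 in splenic B220-2NBDG+ cells, 29145 in splenic B220+2NBDG- cells and 23163 in splenic B220-2NBDG- cells. The 11 mitochondrial members summed to 32080, 30445, 32552, 27353 and 29345 CPM in the same order. Splenic B220+2NBDG- cells thus had the highest nuclear and the lowest mitochondrial sum. As markers of RNA quality, Malat1 stood at 24523, 28724, 34426, 27441 and 23643 CPM and Neat1 at 78.6, 137, 122, 136 and 125 CPM in the same order. Malat1 was highest in splenic B220-2NBDG+ cells, as was the mitochondrial sum, and the part of RNA quality was not tested. Mitochondrial UMIs per nuclear UMI came to 1.499 (95% interval 1.488 to 1.510) in bone marrow B220-2NBDG+ cells, 1.254 (1.245 to 1.263) in splenic B220+2NBDG+ cells, 1.455 (1.443 to 1.468) in splenic B220-2NBDG+ cells, 0.939 (0.933 to 0.945) in splenic B220+2NBDG- cells and 1.27 (1.26 to 1.28) in splenic B220-2NBDG- cells. The ratio was higher in 2NBDG+ than in 2NBDG- cells within each B220 class, and lower in B220+ than in B220- cells within each 2NBDG class. Splenic B220+2NBDG+ and B220-2NBDG- cells had nearly equal ratios, with intervals that meet. This ratio does not depend on Jchain or on the total used. Per cell, the median log2 ratio of mitochondrial to nuclear member UMIs was 0.60, 0.40, 0.54, 0.13 and 0.41 in the same order of libraries, and the quartiles of splenic B220+2NBDG- cells, -0.34 and 0.57, were the widest apart.

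**Figure D2:**
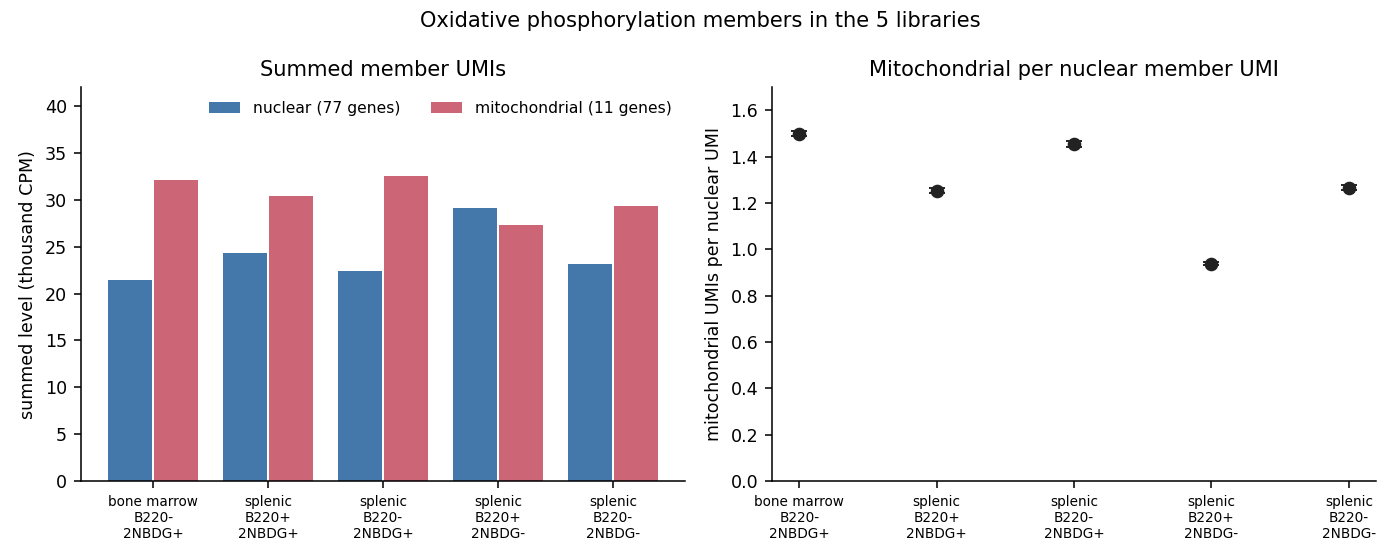
Left, summed CPM (bars from 0) of the 77 nuclear and 11 mitochondrial members in each library. Right, mitochondrial UMIs per nuclear UMI with 95% counting intervals, highest at 1.499 in bone marrow B220-2NBDG+ cells and lowest at 0.939 in splenic B220+2NBDG- cells.

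The first comparison asked how glucose analogue uptake went with these transcripts among B220+ cells. Nuclear members were mostly lower in splenic B220+2NBDG+ than in splenic B220+2NBDG- cells: 65 of 77 were lower and 12 higher, with a median log2 ratio of -0.25, against -0.13 over the 5831 genes tested. All 11 mitochondrial members were higher, with a median of 0.12, which became -0.47 when all UMIs, immunoglobulin included, were taken as the total, a change that moved the median of all genes to -0.73. The 14 ATP synthase genes were all lower (median -0.37), as were the 8 complex III genes (median -0.43), while the 36 complex I subunits had a median of -0.18 and the 13 complex IV genes of -0.26. Among nuclear and mitochondrial members, 2 were at least 1.5-fold higher and 5 at least 1.5-fold lower, beside 4.97% and 12% of all genes tested. The lower ones were Uqcr10, a small complex III subunit (193 CPM in B220+2NBDG+ cells and 341 in B220+2NBDG- cells, ratio 0.566, interval 0.525 to 0.609), Ndufs1, the largest iron-sulphur subunit of complex I (ratio 0.591, 0.486 to 0.716), the assembly factor Ndufaf7 (0.628, 0.481 to 0.815), Atp5mpl (0.658, 0.624 to 0.694) and Atp5a1, the alpha subunit of the ATP synthase head (0.660, 0.622 to 0.70). The higher ones were Cox6a2 (25.9 CPM in B220+2NBDG+ cells and 11.8 in B220+2NBDG- cells, ratio 2.20, 1.66 to 2.94) and mt-Nd4l (ratio 2.07), followed by mt-Nd5 (1.40), mt-Nd1 (1.22) and Ndufv3 (1.21). mt-Nd4l follows the split of libraries described above, whose part in its ratio was not tested. With cycling cells left out, which removes 165 cells from the B220+2NBDG- library and 13 from the B220+2NBDG+ library, no member was 1.5-fold lower. The nuclear median was then -0.16, beside -0.08 over all genes, and the share of all genes past 1.5-fold in that setting is not given.

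Among B220- splenic cells the nuclear median lay nearer 0. Of the 77 nuclear members 30 were higher and 47 lower in splenic B220-2NBDG+ than in splenic B220-2NBDG- cells, with a median log2 ratio of -0.06 against -0.09 over all genes, and the sign of the nuclear median turned with the scaling (0.02 without Jchain in the total, 0.01 with TMM factors, 0.13 over all UMIs). Mitochondrial members had a median of 0.15, and 8 of 11 were higher. Among all 88 members, 1 was at least 1.5-fold higher and 1 at least 1.5-fold lower, beside 2.3% and 6.59% of all genes tested. The first was mt-Nd3, a core membrane subunit of complex I, at 300 CPM in B220-2NBDG+ cells and 178 in B220-2NBDG- cells (ratio 1.69, interval 1.55 to 1.84), and the next were Atp5k (1.49), mt-Nd2 (1.35), Ndufaf2 (1.29, interval 0.993 to 1.68) and Ndufa1 (1.26). The second was Cox6a2, at 59.9 CPM in B220-2NBDG+ cells and 109 in B220-2NBDG- cells (ratio 0.552, 0.472 to 0.644), followed by Ndufaf7 (0.725, 0.518 to 1.01), Uqcr10 (0.763), mt-Nd4l (0.770) and Ndufaf3 (0.780). The Cox6a2 ratio was thus past 1.5-fold in opposite directions in B220+ and B220- cells. Both comparisons cross the split of libraries described above, and Atp5l, Atp5g2 and mt-Atp8 turned in the same directions. Over the 5 libraries Cox6a2 did not follow the split, since bone marrow, at 18.6 CPM, lay below splenic B220-2NBDG+ cells. The part of the split in the Cox6a2 ratios was not tested. In IgM cells alone Cox6a2 stood at 94.8 CPM in B220-2NBDG+ and 130 CPM in B220-2NBDG- cells, a log2 ratio of -0.45 that is not past 1.5-fold, and at 56.4 CPM in B220+2NBDG+ and 16.3 CPM in B220+2NBDG- cells. The comparison in B220- cells was also the one most changed by isotype: in IgA cells alone the nuclear median was -0.51, beside -0.30 over all genes, and in IgM cells alone 0.06, beside -0.02.

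B220 was compared within each 2NBDG class. In 2NBDG+ cells, 58 of 77 nuclear members were higher in splenic B220+2NBDG+ than in splenic B220-2NBDG+ cells, with a median log2 ratio of 0.11 against 0.12 over all genes (-0.03 without Jchain in the total and -0.13 over all UMIs), and 8 of 11 mitochondrial members were lower, with a median of -0.20. No member was 1.5-fold higher and 2 were 1.5-fold lower, beside 9.93% and 4.1% of all genes tested. These were Cox6a2 (25.9 CPM in B220+2NBDG+ cells and 59.9 in B220-2NBDG+ cells, ratio 0.432, interval 0.348 to 0.534) and mt-Nd3 (0.624, 0.573 to 0.679), followed by mt-Nd2 (0.703), Ndufaf8 (0.794) and Cox7a2l (0.819). Ndufa1, a small membrane subunit that complex I needs for assembly, had the highest ratio, 1.40 (1.33 to 1.46), with Ndufa4 at 1.37 (1.31 to 1.44), Uqcrfs1, the Rieske iron-sulphur protein of complex III, at 1.33, mt-Nd4l at 1.33 and Uqcr10 at 1.31. IgG cells numbered 552 of 1126 in the B220+2NBDG+ library and 117 of 892 in the B220-2NBDG+ library. In that order Ndufa1 stood at 780 and 676 CPM in IgM cells, 1238 and 1017 in IgG cells and 990 and 703 in IgA cells. The part of isotype in its ratio was not tested.

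In 2NBDG- cells the B220 contrast gave the highest nuclear median of the 5 comparisons. Of 77, 67 were higher in splenic B220+2NBDG- than in splenic B220-2NBDG- cells, with a median log2 ratio of 0.32 against 0.19 over all genes, and all 14 ATP synthase genes (median 0.53) and all 8 complex III genes (median 0.48) were among them. All 11 mitochondrial members were lower, with a median of -0.09, which became 0.44 over all UMIs, where the median of all genes was 0.72. Counts past 1.5-fold were 13 higher and 2 lower of 88, beside 17.8% and 7.67% of all genes tested, so the members passed that fold no more often than other genes did. The highest were Ndufs1 (49.4 CPM in B220+2NBDG- cells and 25.2 in B220-2NBDG- cells, ratio 1.96, interval 1.59 to 2.43), Uqcr10 (1.77, 1.64 to 1.91), Atp5k (1.73), Atp5mpl (1.66) and Atp5b, the catalytic beta subunit of ATP synthase (1.65, 1.57 to 1.73). Uqcrfs1 (1.63), Atp5a1 (1.55), Cox5a (1.54), Atp5g1 (1.53), Atp5j (1.51), Atp5f1 (1.51), Ndufa1 (1.51) and Cox7a2 (1.51) were also past 1.5-fold. The lowest were Cox6a2 (11.8 CPM in B220+2NBDG- cells and 109 in B220-2NBDG- cells, ratio 0.108, 0.0845 to 0.138) and mt-Nd4l (0.494), then mt-Nd5 (0.677), Cox7a2l (0.723) and Ndufaf8 (0.787). mt-Nd4l and Atp5k follow the split of libraries described above, whose part in their ratios was not tested. Ndufa1 stood at 799 CPM in IgM cells of B220+2NBDG- and 493 in those of B220-2NBDG-. In that order it stood at 996 and 975 CPM in IgG cells and 905 and 979.5 in IgA cells. The part of isotype in the ratios of this comparison was not tested. With cycling cells left out the higher members numbered 6 and the nuclear median was 0.22, beside 0.13 over all genes. The share of all genes past 1.5-fold in that setting is not given.

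Other genes of the pathway were set beside this B220 contrast in 2NBDG- cells. All 4 genes of complex II, succinate dehydrogenase, were higher in B220+2NBDG- than in B220-2NBDG- cells, 3 of them at least 1.5-fold (median log2 ratio 0.62). Cytochrome c, Cycs, the carrier between complexes III and IV, stood at 467 CPM in B220+2NBDG- cells, against 229 in B220-2NBDG- cells. Of 73 genes of mitochondrial ribosomal proteins, 60 were higher and 11 at least 1.5-fold higher, no larger a share than the 17.8% of all genes (median 0.27, against 0.19 over all genes), while 14 complex IV assembly genes had a median of 0.08.

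Bone marrow and splenic cells, both B220-2NBDG+, were compared last. Of 77 nuclear members 55 were lower in bone marrow B220-2NBDG+ than in splenic B220-2NBDG+ cells, with a median log2 ratio of -0.07 against -0.16 over all genes (0.09 with TMM factors), and the median of the 11 mitochondrial members was -0.02. Of the 88 members, mt-Nd4l alone was at least 1.5-fold higher (ratio 1.77) and Cox6a2 alone at least 1.5-fold lower (18.6 CPM in bone marrow and 59.9 in spleen, ratio 0.311, interval 0.245 to 0.393), beside 2.56% and 7.97% of all genes tested. The next highest were mt-Nd5 (1.17), Ndufaf3 (1.13, interval 0.911 to 1.40), Ndufv3 (1.10) and Ndufaf7 (1.10, 0.787 to 1.55), and the next lowest Ndufs1 (0.718), Atp5k (0.772), Uqcrc2 (0.776) and mt-Nd3 (0.777). Here too the part of the split of libraries in the ratios of mt-Nd4l and Atp5k was not tested.

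**Figure D3:**
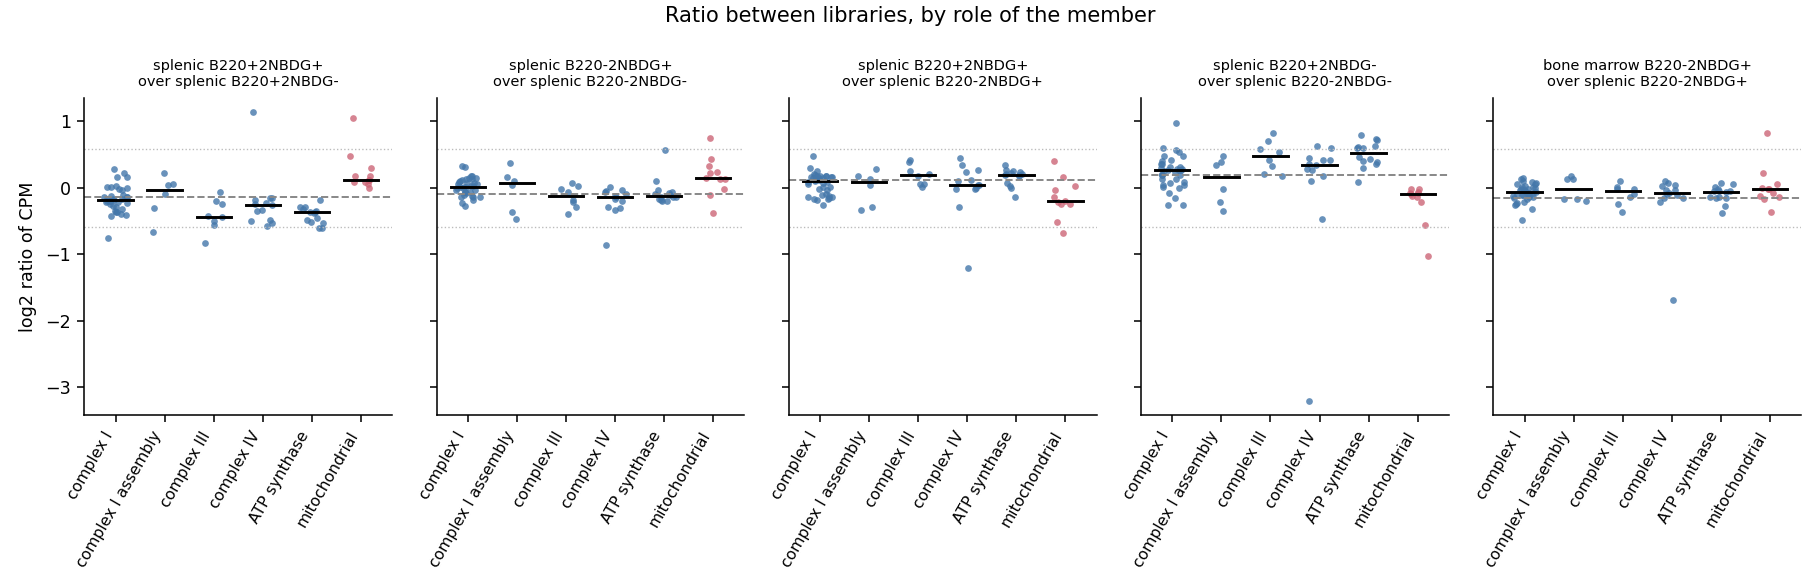
Log2 ratio of CPM for each member (points), by role, in the 5 library comparisons, with the median of each role (black bars), the median of all 5831 genes tested (dashed) and 1.5-fold (dotted). The medians of the mitochondrial members sit above the nuclear medians in both 2NBDG comparisons and below them in both B220 comparisons, and the lowest point, at -3.20, is Cox6a2.

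The mitochondrial members were described one by one across libraries, with values for bone marrow first, then for the spleen B220+2NBDG+, then B220-2NBDG+, then B220+2NBDG- and last B220-2NBDG- cells. mt-Co1, the catalytic subunit of complex IV, was highest in splenic B220+2NBDG+ cells, at 4941, 5651, 5021, 5012 and 5081 CPM. mt-Co2, which receives electrons from cytochrome c, stood at 3118, 2870, 3153, 2700 and 2845 CPM, and mt-Co3 at 4985, 4567, 5276, 4385 and 4832 CPM. Both were lowest in splenic B220+2NBDG- cells. mt-Cytb, the only complex III subunit made in the mitochondrion, stood at 3393, 3135, 3702, 2902 and 3162 CPM, and mt-Nd1, which lines the quinone site of complex I, at 3874, 3276, 3882, 2675 and 3090 CPM. For both genes the 2 B220-2NBDG+ libraries, from marrow and spleen, were the highest. mt-Nd2, mt-Nd3 and mt-Nd5 stood at 330 to 470, 176 to 300 and 156 to 250 CPM. mt-Nd6, the only member on the other strand, stayed between 4.79 and 11.7 CPM, under the mean of 10 CPM.

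The 3 members with the highest CPM in each nuclear complex were as follows. In complex I these were Ndufa1 (580 to 1022 CPM), Ndufa13 (596 to 672) and Ndufa2 (476 to 594), in complex III Uqcrq (560 to 706), Uqcrb (430 to 708) and Uqcrh (413 to 589), in complex IV Cox4i1, Ndufa4 (637 to 1060) and Cox7c (607 to 768), and in ATP synthase Atp5e (580 to 838), Atp5j2 (523 to 732) and Atp5b (414 to 795). Apart from Ndufa1 and Ndufa13, whose highest library was splenic B220+2NBDG+, all of these were highest in splenic B220+2NBDG- cells. Counts come from the 3' ends of transcripts and carry no gene length, so levels are not compared between genes.

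Cells were then grouped by their heavy chain into IgG, IgA and IgM cells, which gave 15 sums, 1 per isotype and library. Isotypes were compared within libraries with edgeR's quasi-likelihood test and Benjamini-Hochberg adjustment over 8498 genes. Whether different libraries drew on different animals is not labelled, and these p-values then measure only how far the libraries spread. IgM cells numbered 292 to 1074 per library, IgG cells 74 to 552 and IgA cells 77 to 553. The 12 mitochondrial members tested gave 0 calls in each of the 3 contrasts with edgeR and with DESeq2, and 1 unadjusted p under 0.05, that of mt-Nd3 in IgA against IgM cells. Among 81 nuclear members, 3 were higher and 4 lower in IgA than in IgM cells, beside 6.19% and 6.92% of all genes, 2 were higher and 3 lower in IgG than in IgM cells, beside 2.46% and 3.66%, and 1 was higher and 1 lower in IgG than in IgA cells, beside 4.85% and 4.62%. The nuclear medians were 0.03, 0.10 and 0.06 on the log2 scale. Of the 14 calls, 10 were of complex IV genes, which made up 15 of the 81 members tested. Cox6a2, Ndufa4 and Cox4i2 each enter this count in more than 1 contrast. The 4 lower calls in IgA against IgM cells became 1 without the bone marrow or the splenic B220+2NBDG- library and 2 without the splenic B220-2NBDG+ or B220+2NBDG+ library, and the 3 higher calls became 1 without splenic B220-2NBDG- cells. The 3 lower calls in IgG against IgM cells became 1 without splenic B220+2NBDG+ cells. In IgG against IgA cells, 2 members were lower without bone marrow and 2 higher without splenic B220-2NBDG- cells. Shares of all genes called without a library are not given, so these changes in counts are not read as results about the members.

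The balance of the 2 genomes was also taken within each isotype. Mitochondrial UMIs per nuclear UMI in IgM cells came to 1.33 in bone marrow B220-2NBDG+, 1.29 in splenic B220+2NBDG+, 1.39 in splenic B220-2NBDG+, 1.01 in splenic B220+2NBDG- and 1.33 in splenic B220-2NBDG- libraries. In IgA cells the ratios were 1.62, 1.31, 1.57, 0.974 and 1.03, and in IgG cells 1.502, 1.22, 1.55, 0.841 and 1.16, in the same order. Within each of the 3 isotypes the ratio was higher in 2NBDG+ than in 2NBDG- cells of the same B220 class, and lower in B220+ than in B220- cells of the same 2NBDG class. IgA cells lay above IgM cells in bone marrow and splenic B220-2NBDG+ cells and below them in both 2NBDG- libraries, so isotypes had no common order.

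Cox6a2 was highest in IgM cells in every library. It stood at 42.7 CPM in IgM cells of bone marrow B220-2NBDG+, 56.4 in those of splenic B220+2NBDG+, 94.8 in those of splenic B220-2NBDG+, 16.3 in those of splenic B220+2NBDG- and 130 in those of splenic B220-2NBDG- libraries. In IgA cells of the same libraries it stood at 7.75, 8.20, 1.01, 4.91 and 8.58 CPM, and in IgG cells at 0, 5.51, 8.06, 4.51 and 15.9 CPM. No IgA or IgG value reached the IgM value of its own library. The log2 fold change was -3.09 ± 0.31 (SE) in IgA against IgM cells (adjusted p = 1.511e-07) and -3.17 ± 0.31 in IgG against IgM cells (adjusted p = 3.659e-07), and it was lower in 5 of 5 libraries in both. Its ubiquitous counterpart Cox6a1 was not called in either contrast, and lay between 479 and 695 CPM in IgM cells. The share of IgM cells with at least 1 Cox6a2 UMI was 5.82% in bone marrow B220-2NBDG+, 11.1% in splenic B220+2NBDG+, 14.6% in splenic B220-2NBDG+, 2.71% in splenic B220+2NBDG- and 14.8% in splenic B220-2NBDG- cells, against 0% to 4.12% of IgA and IgG cells. Median depths outside immunoglobulin genes were 3600 to 6474 UMIs in IgM cells and 4159 to 6682 in the others. Thinned to 2000 such UMIs per cell, these shares were 3.51%, 5.80%, 9.50%, 2.24% and 10.9% of IgM cells, against 0% to 3.36% of the others. The transcript was concentrated: in splenic B220-2NBDG- IgM cells, 41 cells with 5 or more UMIs held 314 of 535 UMIs, and 1 bone marrow IgM cell held 33. IgM cells alone gave the same order of libraries as all cells, with splenic B220-2NBDG- highest and splenic B220+2NBDG- lowest.

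Ndufa4, a subunit of complex IV long counted with complex I, showed the opposite preference. In IgA cells it stood at 679 CPM in bone marrow B220-2NBDG+, 1354 in splenic B220+2NBDG+, 870 in splenic B220-2NBDG+, 1915 in splenic B220+2NBDG- and 2350 in splenic B220-2NBDG- libraries. In IgM cells of the same libraries it stood at 576, 827, 601, 977 and 597 CPM, and in IgG cells at 630, 926, 687, 1040 and 972 CPM. IgA cells were above IgM and IgG cells in 5 of 5 libraries, but by unequal amounts. The ratio of IgA to IgM cells ran from 1.18 (interval 1.10 to 1.27) in bone marrow to 3.94 (3.68 to 4.21) in splenic B220-2NBDG- cells, and was 1.64 in splenic B220+2NBDG+, 1.45 in splenic B220-2NBDG+ and 1.96 in splenic B220+2NBDG- cells. The log2 fold change was 0.99 ± 0.13 (SE) in IgA against IgM cells (adjusted p = 7.856e-06) and -0.80 ± 0.13 in IgG against IgA cells (adjusted p = 0.000231). The median IgA cell of splenic B220-2NBDG- had 1949 CPM, with quartiles of 1218 and 3279, against a median of 528 and quartiles of 277 and 832 in IgM cells. In bone marrow the quartiles overlapped, with a median of 606 CPM (quartiles 330 and 909) in IgA cells and 561 CPM (quartiles 356 and 750) in IgM cells. Its paralogue Ndufa4l2 went the other way, with 2.45 to 13.7 CPM in IgM cells and 0 to 7.09 CPM in IgA cells (log2 fold change -1.33 ± 0.42, adjusted p = 0.03602), a call lost in 7 of 10 alternatives.

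Cox4i2, the oxygen-sensitive lung form of subunit 4, was highest in IgG cells. It stood at 10.1, 14.9, 6.04, 12.7 and 6.35 CPM in IgG cells, with the libraries in the same order as for Ndufa4. In IgA cells it stood at 2.26, 4.10, 1.01, 0 and 0 CPM, and in IgM cells at 3.21, 3.64, 3.31, 0.545 and 3.15 CPM. IgG cells were above both in every library, at low counts of 2 to 38 UMIs. The log2 fold change was 2.04 ± 0.40 (SE) in IgG against IgM cells (adjusted p = 0.002089) and 2.55 ± 0.57 in IgG against IgA cells (adjusted p = 0.004394), fitted values that depend on the prior count where IgA cells had 0. A UMI was found in 2.56% to 7.14% of IgG cells, 0% to 2.06% of IgA cells and 0.285% to 1.81% of IgM cells. Thinned to 2000 UMIs per cell, the shares were 3.797%, 2.64%, 0%, 2.89% and 1.67% of IgG cells, against 0.742%, 1.11%, 0.493%, 0% and 0% of IgA cells and 0.702%, 0.725%, 0.388%, 0% and 0.548% of IgM cells, so in splenic B220-2NBDG+ cells IgG was not the highest. At 90% dominance of 1 heavy chain class Cox4i2 did not pass the filter on low counts and was not tested. The ubiquitous Cox4i1 was not called.

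Ndufa1 was lowest in IgM cells. It stood at 975 to 1238 CPM in IgG cells and 493 to 799 CPM in IgM cells over the 5 libraries, and these ranges do not overlap (log2 fold change 0.59 ± 0.10, adjusted p = 0.0005969). In IgA cells, at 702 to 990 CPM, the difference from IgM was smaller (0.41 ± 0.10, adjusted p = 0.007083) and was lost in 2 of 11 alternatives; in splenic B220-2NBDG- cells the ratio of IgA to IgM was 1.99 and in bone marrow 1.01. Cox5a, a matrix-side subunit of complex IV, rose in IgA against IgM cells (0.42 ± 0.12, adjusted p = 0.01686), though it was 208 CPM in IgA cells and 238 in IgM cells of bone marrow, and the call was lost in 3 of 11 alternatives. Ndufa5 (-0.38 ± 0.11, adjusted p = 0.01838) and Cox7c (-0.30 ± 0.09, adjusted p = 0.03443) fell in IgA against IgM cells, calls lost in 3 and 5 of 11 alternatives; Cox7c was not lower in splenic B220-2NBDG- cells, at 683 CPM in IgA and 677 in IgM cells. Cox7a2l fell in IgG against IgM cells in 5 of 5 libraries (-0.54 ± 0.11, adjusted p = 0.003797), a call lost in 2 of 11 alternatives. The complex I assembly factor Ndufaf8 (-0.36 ± 0.11, adjusted p = 0.04506) was lost in 10 of 11.

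**Figure D4:**
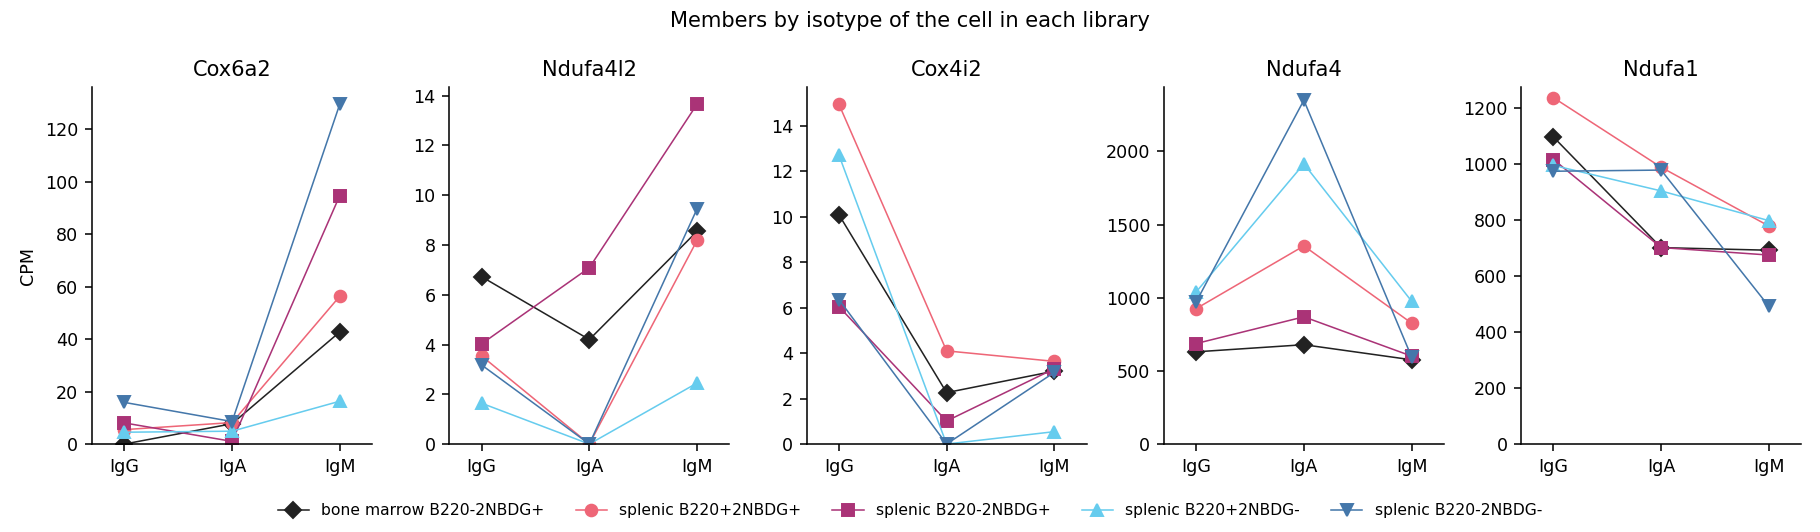
CPM (vertical axes, linear from 0, a scale per gene) of Cox6a2, Ndufa4l2, Cox4i2, Ndufa4 and Ndufa1 in IgG, IgA and IgM cells, with 1 line per library. Cox6a2 is at 16.3 to 130 CPM in IgM cells and at most 15.9 CPM in the others, Cox4i2 is highest in IgG cells and Ndufa4 in IgA cells of every library, up to 2350 CPM.

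Other genes of the pathway were called as well. Among carriers, Ucp2, an uncoupling protein family member of the inner membrane, rose in IgG cells against IgM (0.75 ± 0.11, adjusted p = 8.168e-05) and against IgA cells (0.76 ± 0.12, adjusted p = 0.000116), and Slc25a4, an ADP/ATP exchanger, rose in IgA against IgM cells (0.59 ± 0.12, adjusted p = 0.001375). Ttc19, an assembly factor of complex III, fell in IgA against IgM cells (-0.97 ± 0.18, adjusted p = 0.0004909). Of 77 mitochondrial ribosomal protein genes 0 rose and 3 fell in IgA against IgM cells, among them Mrpl52 (-0.72 ± 0.11, adjusted p = 5.448e-05), 1 rose and 2 fell in IgG against IgM cells, and 2 rose and 0 fell in IgG against IgA cells. The shares of all genes called were those given above, 2.46% to 6.92%.

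Cells with cell cycle transcripts were compared with the other cells of the same library, in the 3 libraries that had at least 10 of them: 13 in splenic B220+2NBDG+, 165 in splenic B220+2NBDG- and 16 in splenic B220-2NBDG- cells. Mitochondrial UMIs per nuclear UMI were lower in cycling cells in each: 0.782 in cycling and 1.27 in other splenic B220+2NBDG+ cells, 0.680 and 1.06 in splenic B220+2NBDG- cells, and 0.778 and 1.28 in splenic B220-2NBDG- cells. Both sides of the ratio differed. Nuclear sums were 32966, 34053 and 35564 CPM in cycling cells against 24116, 27274 and 22807 CPM in other cells, in that order of libraries, and mitochondrial sums were 25778, 23150 and 27666 CPM against 30506, 28908 and 29264 CPM. Cycling cells also carried more UMIs outside immunoglobulin genes, with medians of 7088, 10115 and 7232 per cell against 4724, 4242 and 3696. These medians do not measure total RNA, since immunoglobulin took 41.9%, 25.2% and 28.4% of all UMIs against 65.1%, 52.3% and 63.8%. Jchain was 33409 to 57358 CPM against 126020 to 235950 CPM. The contrast was not adjusted for isotype, and the isotypes were unevenly spread over cycling cells. Leaving cycling cells out took IgM cells from 441 to 438 and IgG cells from 552 to 542 in splenic B220+2NBDG+. It took them from 701 to 619 and from 417 to 344 in splenic B220+2NBDG-, and from 1074 to 1065 and from 74 to 73 in splenic B220-2NBDG-. The part of depth, of Jchain and of isotype in these differences and in the fold changes below was not tested.

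In edgeR's quasi-likelihood test over 9228 genes, 13 nuclear members rose and 9 fell in cycling cells, and 9 of 12 mitochondrial members fell and none rose, beside 9.34% of all genes higher and 12.6% lower. The median log2 fold change was 0.12 for 82 nuclear members, -0.54 for 12 mitochondrial members and -0.17 for all genes. DESeq2 on the same sums called 4 members higher and 7 lower, and 11 of the 31 calls were shared in direction. The lower members numbered 18 with all 3 libraries, 6 without splenic B220+2NBDG+ and 9 without splenic B220+2NBDG- cells. Shares of all genes called by DESeq2 or without a library are not given. The changes in counts are therefore not read as results about the members. By role, 6 of 15 ATP synthase genes and 2 of 8 complex III genes rose and none fell, while 1 of 36 complex I subunits rose and 6 fell. The largest rises among well measured genes were Uqcr10 (333, 505 and 510 CPM in cycling cells of the 3 libraries, in the order in which their cycling cells were counted above, against 190, 279 and 184 CPM in other cells, log2 fold change 0.68 ± 0.16, adjusted p = 0.0002775) and Cox5a (523, 583 and 645 CPM against 267, 339 and 253 CPM, 0.65 ± 0.15, adjusted p = 0.0002433). Cycling cells were higher in all 3 libraries for both. Ndufaf2, an assembly factor of complex I (0.88 ± 0.28), Ndufab1, which is also the mitochondrial acyl carrier protein (0.55 ± 0.18), Atp5g1 (0.52 ± 0.14), Atp5g3 (0.51 ± 0.17), Atp5j (0.51 ± 0.14), Atp5mpl (0.49 ± 0.15), Cox7a2 (0.48 ± 0.14) and Atp5b (0.45 ± 0.14) also rose, at adjusted p of 0.002086 to 0.01341, and Atp5f1, Cox6a1 and Uqcrb rose by 0.39 to 0.42. Uqcr10, Cox5a, Atp5g1 and Atp5j kept their call in 6 of 6 alternatives. The calls of Atp5g3, Ndufab1 and Ndufaf2 were lost in 2 of 6, those of Atp5b, Atp5f1, Atp5mpl, Cox7a2 and Uqcrb in 3 of 6, and that of Cox6a1 in 4 of 6.

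The mitochondrial fall was led by mt-Cytb (2415, 2301 and 2762 CPM in cycling cells of the same 3 libraries, against 3147, 3126 and 3160 CPM in other cells, log2 fold change -0.71 ± 0.13, adjusted p = 7.023e-07), mt-Co3 (-0.70 ± 0.13, adjusted p = 5.302e-07) and mt-Co1 (-0.70 ± 0.13, adjusted p = 5.962e-07), which were lower in 3 of 3 libraries and kept their call in 6 of 6 alternatives. mt-Nd4 (-0.59), mt-Nd3 (-0.58), mt-Nd4l (-0.56), mt-Co2 (-0.52), mt-Nd1 (-0.49) and mt-Atp6 (-0.48) also fell, with calls lost in 3 to 5 of 6 alternatives; mt-Co2, mt-Atp6, mt-Nd4 and mt-Nd4l had higher CPM in cycling cells in 1 of the 3 libraries. Among nuclear members, Ndufa1 fell (723, 516 and 517 CPM against 1028, 1014 and 581 CPM, -0.96 ± 0.15, adjusted p = 2.011e-09), as did Ndufv3 (-0.69 ± 0.17, adjusted p = 0.0002842) and Ndufa7 (-0.64 ± 0.17, adjusted p = 0.001497), calls lost in 0, 1 and 3 of 6 alternatives. Cox4i2, with 1 UMI in all cycling cells, fell by 3.93 ± 1.09 (adjusted p = 0.002463), and Cox6a2 by 2.50 ± 0.42 (adjusted p = 4.205e-08), though in splenic B220+2NBDG+ cells it stood at 28.5 CPM in cycling and 25.9 CPM in other cells. Ndufa13 and Ndufa6 fell by 0.51 each, calls lost in 4 and 5 of 6 alternatives, and Ndufaf8 and Ndufs7 fell by 0.65 and 0.47, calls that 6 of 6 alternatives lost. Ndufa6 and Ndufs7 had higher CPM in cycling cells in 1 of the 3 libraries. The fold changes use TMM scaling, so they are not ratios of the CPM values beside them.

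**Figure D5:**
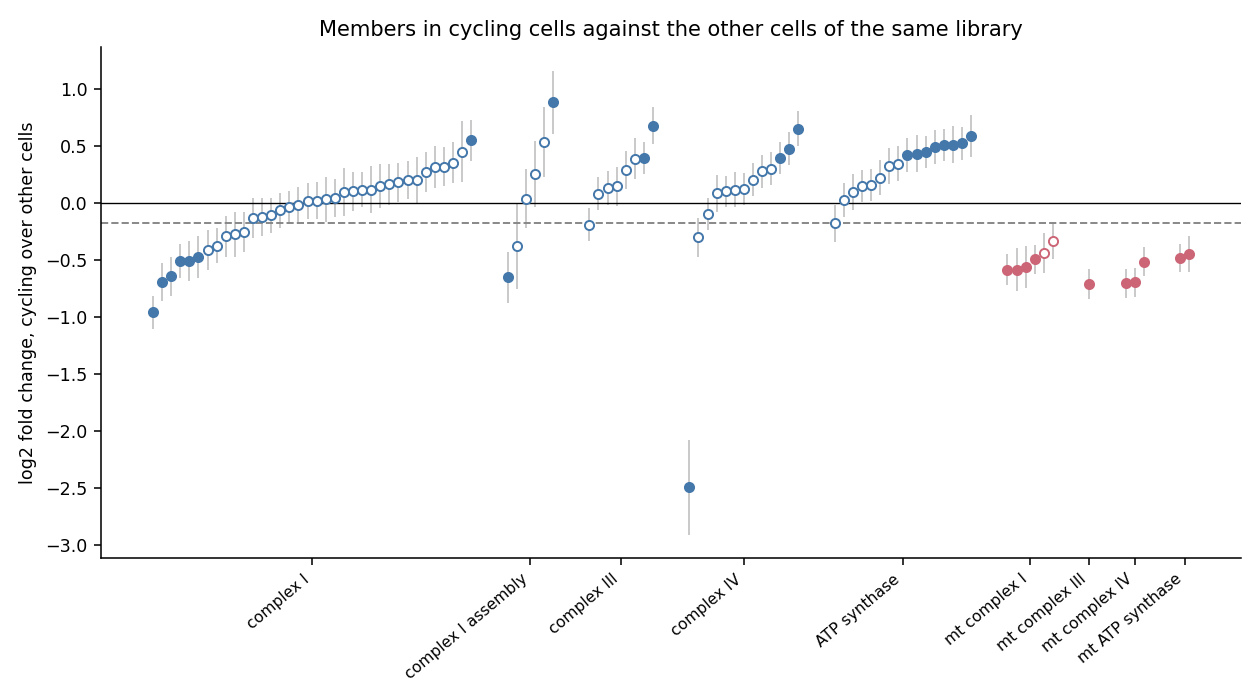
Log2 fold change in cycling cells against the other cells of the same library (vertical axis, ± SE), for members of at least 10 average CPM, by role; filled points have an adjusted p under 0.05, and the dashed line is the median of all 9228 genes. Mitochondrial points lie between -0.71 and -0.33, ATP synthase points mostly above 0, and the lowest point is Cox6a2.

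Beside the members, Cycs rose in cycling cells (0.98 ± 0.15, adjusted p = 2.211e-09), as did Tfam, the packaging and transcription factor of mitochondrial DNA (0.82 ± 0.27, adjusted p = 0.01568), and Myc (1.27 ± 0.40, adjusted p = 0.01012). Of 78 mitochondrial ribosomal protein genes 10 rose and 2 fell, and of 24 import genes 4 rose and none fell, beside 9.34% of all genes higher and 12.6% lower, among them Tomm40, the outer membrane channel (0.92 ± 0.24). Of 18 complex IV assembly genes none rose and 3 fell: Cox14, Pet100 and Sco2.

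Promoters of the nuclear members were searched for 3 motifs of 8 letters on both strands: CATGCGCA (Nrf1), CCGGAAGT (ETS family, which includes Gabpa) and AAGATGGC (Yy1), factors known for controlling respiratory genes. The windows of 300 bases, from 250 before to 50 after each start, are RefSeq's on GRCm38.p6, and 71 nuclear members matched. The Nrf1 motif was present for 12.7% of these members and 2.42% of all 27025 genes, the ETS motif for 7.04% and 4.31%, and the Yy1 motif for 14.1% and 3.19%. At least 1 of the 3 was present for 32.4% of the members and 9.35% of all genes. These matches are descriptions of letters. Windows of 4 members called in cycling cells that hold a motif are shown, from genes of both directions: Atp5j, which kept its call in all alternatives, Ndufa6, which lost it in 5 of 6, and Atp5g2 (0.59 ± 0.19, adjusted p = 0.009643) and Atp5l (0.43 ± 0.16, adjusted p = 0.03728), which were kept out of the counts. Motifs are in capitals, Yy1 in Atp5j and Nrf1 in the others: Atp5j (chr16:84834927-84835226, - strand), Atp5l (chr9:44920693-44920992, - strand), Atp5g2 (chr15:102670998-102671297, - strand) and Ndufa6 (chr15:82354242-82354541, - strand).
Atp5j: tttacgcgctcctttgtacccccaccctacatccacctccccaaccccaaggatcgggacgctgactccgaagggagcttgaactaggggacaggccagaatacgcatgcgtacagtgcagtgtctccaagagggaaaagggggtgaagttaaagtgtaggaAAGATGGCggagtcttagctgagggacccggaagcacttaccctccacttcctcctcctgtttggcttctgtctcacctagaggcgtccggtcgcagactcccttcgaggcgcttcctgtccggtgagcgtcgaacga
Atp5l: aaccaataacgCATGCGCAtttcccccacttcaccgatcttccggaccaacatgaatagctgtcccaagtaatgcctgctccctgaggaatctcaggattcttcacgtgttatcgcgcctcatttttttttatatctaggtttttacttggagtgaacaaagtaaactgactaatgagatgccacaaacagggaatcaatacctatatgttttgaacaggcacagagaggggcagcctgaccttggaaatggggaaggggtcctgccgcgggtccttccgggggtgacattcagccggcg
Atp5g2: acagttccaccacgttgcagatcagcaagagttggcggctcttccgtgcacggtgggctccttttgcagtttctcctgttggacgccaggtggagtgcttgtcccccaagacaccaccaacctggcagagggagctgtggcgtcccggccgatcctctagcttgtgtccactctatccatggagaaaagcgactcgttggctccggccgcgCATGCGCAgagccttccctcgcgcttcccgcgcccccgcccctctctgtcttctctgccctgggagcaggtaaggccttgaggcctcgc
Ndufa6: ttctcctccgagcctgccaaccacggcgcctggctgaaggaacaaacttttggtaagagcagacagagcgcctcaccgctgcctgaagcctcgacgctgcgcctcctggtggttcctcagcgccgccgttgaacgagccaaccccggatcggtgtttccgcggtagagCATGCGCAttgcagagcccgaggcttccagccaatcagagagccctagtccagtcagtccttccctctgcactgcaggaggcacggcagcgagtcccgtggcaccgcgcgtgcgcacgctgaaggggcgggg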

How the data were processed

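The deposited files hold UMI counts per gene and cell barcode, which the authors made with Cell Ranger 2.1 against GRCm38, per the submitters' processing notes. Gene symbols came from GENCODE M21 (32655 of 33456 IDs). From 5476 barcodes, 25 T cell-like cells with 3 or more UMIs of T cell markers were left out, 13 of them by Cd3g alone. Predicted doublets (64, scanpy 1.11.5) were kept and left out as an alternative. UMIs were summed per library, leaving out 266 immunoglobulin genes, and divided by the remaining total. Library comparisons used genes with a mean of 10 CPM or more and exact conditional binomial 95% intervals, which cover counting error only. A cell had an isotype where 1 heavy chain class held at least 70% of 10 or more heavy chain UMIs. For the cycling call each cell was thinned to 1000 UMIs outside immunoglobulin genes. A cell was cycling if 3 or more of these fell on 41 cell cycle genes, and cells with fewer than 1000 were left out of the cycling contrast. Sums of at least 20 cells per isotype, or 10 cycling cells, were tested with edgeR 4.0.16 (R 4.3.3; quasi-likelihood, TMM, library as a block, Benjamini-Hochberg over all genes, 0.05) and, as an alternative, DESeq2 1.42.0. The edgeR step was tested on simulated data.

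Named with values were the mitochondrial members, Atp5g2, Atp5l and mt-Atp8, the members past 1.5-fold with the 5 highest and 5 lowest per library comparison, the called members of each contrast (at most 10 in each direction), the tissue isoforms, and the 3 members of each complex with the highest CPM. The members and the gene lists were chosen with earlier results of these data known.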

Additional observations from a re-analysis of the deposited data

Results flagged for a closer look

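In 4 genes the ratio of 2NBDG+ to 2NBDG- cells was past 1.5-fold in opposite directions in B220+ and B220- splenic cells. With 1 library per group the difference was not tested, nor was the part of the split of libraries in that of Cox6a2. For Cox6a2 the log2 ratio of 2NBDG+ to 2NBDG- cells was 1.99 higher in B220+ than in B220- cells. For the 3 genes kept out of the counts the same quantity was 4.08 for Atp5l, 5.11 for Atp5g2 and 4.92 for mt-Atp8. Taken the other way, the B220 log2 ratio in 2NBDG+ cells minus that in 2NBDG- cells is the same difference of the same 4 libraries, again 4.08 for Atp5l, 5.11 for Atp5g2 and 4.92 for mt-Atp8.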

How the results depend on the processing

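The log2 ratio of mitochondrial to nuclear UMIs kept its sign under every alternative in the 4 splenic comparisons; for bone marrow against spleen it was -0.06 in IgM cells only. The cause of the shifts below was not tested. Where 5 values are given they run as in the report: the 2NBDG comparison among B220+ and then B220- cells, the B220 comparison among 2NBDG+ and then 2NBDG- cells, then marrow against spleen. Nuclear medians were -0.84, 0.13, -0.13, 0.85 and -0.19 over all UMIs, -0.089, 0.019, -0.030, 0.093 and -0.015 without Jchain, and -0.16, 0.013, 0.021, 0.21 and 0.086 with TMM factors. Medians of all genes tested were -0.73, 0.10, -0.12, 0.72 and -0.28 over all UMIs. Without Jchain these were 0.023, -0.0091, -0.021, -0.034 and -0.11, and with TMM factors -0.050, -0.016, 0.029, 0.083 and -0.0048. Shares of all genes past 1.5-fold are not given for these settings, so the counts of members that follow are not read as results about the members. Over all UMIs the mitochondrial medians were -0.47 (2NBDG in B220+) and 0.44 (B220 in 2NBDG-); the members past 1.5-fold were 0 higher and 67 lower for 2NBDG in B220+, 3 higher for 2NBDG in B220-, 64 higher and 1 lower for B220 in 2NBDG-, and 2 lower for bone marrow. With TMM factors they were 3 lower for 2NBDG in B220+, 2 higher for 2NBDG in B220- and 6 higher for B220 in 2NBDG-.

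Without cycling cells the nuclear medians of 2NBDG in B220+ and B220 in 2NBDG- were -0.16 and 0.22, beside -0.08 and 0.13 over all genes. The mitochondrial ones were 0.045 and -0.019, and the ratios 0.25, 0.18 (2NBDG in B220-) and -0.28. In that setting 0 members were 1.5-fold lower for 2NBDG in B220+, and 2 and 6 higher for 2NBDG in B220- and B220 in 2NBDG-. In IgM cells the ratios were 0.35, 0.070, -0.11, -0.39 and -0.062, the nuclear medians 0.062 (2NBDG in B220-), 0.031 (B220 in 2NBDG+) and 0.069 (bone marrow), and the mitochondrial median -0.014 for B220 in 2NBDG-; members past 1.5-fold were 2 higher and 0 lower for 2NBDG in B220-, 1 lower for B220 in 2NBDG+ and 2 lower for bone marrow. In IgA cells the ratios were 0.61 for 2NBDG in B220-, -0.26 for B220 in 2NBDG+ and -0.080 for B220 in 2NBDG-, the nuclear medians -0.45 for 2NBDG in B220+, -0.51 for 2NBDG in B220- and 0.022 for B220 in 2NBDG-, and the mitochondrial median 0.006 for 2NBDG in B220+. As means over cells, the ratios of the 4 splenic comparisons were 0.27, 0.12, -0.16 and -0.31, and the mitochondrial medians 0.0515 (2NBDG in B220+) and -0.013 (B220 in 2NBDG-). At 2-fold, 0 members were higher for 2NBDG in B220-, B220 in 2NBDG- and bone marrow, 0 lower for both 2NBDG comparisons and 1 lower for B220 in 2NBDG+. Cox4i2, under 10 CPM, had a log2 ratio of 0.76 for B220 in 2NBDG- and -1.95 in IgM cells only.

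With 90% dominance, 0 members were higher in IgG against IgA, since Cox4i2 did not pass the filter on low counts. With Cox6a2 cells left out, chosen after seeing the data, 2 members were lower in IgA and 1 in IgG against IgM. With no filter the nuclear medians of these 2 contrasts were -0.038 and 0.058. Without the library block, 1 member was higher and 1 lower in each of them, and 7 and 7 in cycling cells, with a nuclear median of 0.20; DESeq2 called 4 and 7 there. Leaving out 1 library at a time gave 1 to 3 higher and 1 to 3 lower members in IgA against IgM (nuclear median -0.034 to 0.066), 1 to 2 lower in IgG against IgM (nuclear median 0.071 to 0.12), 1 to 2 higher and 1 to 2 lower in IgG against IgA, and 9 to 11 higher and 6 to 15 lower in cycling cells (medians 0.086 to 0.25 nuclear and -0.57 to -0.39 mitochondrial). Shares of all genes called are not given for these fits, so their counts of members are not read as results about the members. At 5 or more cell cycle UMIs the cycling contrast could not be fitted, since 1 library kept at least 10 cycling cells. No paired analysis was possible because each group holds 1 library, so library comparisons share no replicate number; the isotype and cycling contrasts had the library as a block. With 1 library per group, depth limits only the counting error.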

Other observations

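IgM cells with a Cox6a2 UMI were compared with those without one, within the 5 libraries, a comparison added after seeing the data; edgeR called 53 genes higher and 55 lower of 7978. The 53 include Cox6a2 itself, which defined the cells, and the sums of cells with it held 17 cells in bone marrow B220-2NBDG+ and 19 in splenic B220+2NBDG-, under the minimum of 20 used for isotypes. Chchd10, a protein of the mitochondrial intermembrane space, stood at 763 CPM in cells with Cox6a2 of bone marrow B220-2NBDG+, 527 of splenic B220+2NBDG+, 625 of splenic B220-2NBDG+, 523 of splenic B220+2NBDG- and 909 of splenic B220-2NBDG- libraries, against 367, 265, 403, 187 and 360 CPM in cells without it (log2 fold change 0.98 ± 0.095 SE, adjusted p = 2.119e-21). Atf5, a stress-responsive transcription factor, rose in 5 of 5 libraries (1.34 ± 0.15, adjusted p = 6.44e-15), as did Ddit3 (0.97 ± 0.17, adjusted p = 1.963e-06), Chac1 (0.88 ± 0.20, adjusted p = 0.001531) and the amino acid transporter subunit Slc3a2 (0.79 ± 0.083, adjusted p = 2.76e-18). Cell cycle genes were among the lower ones, with Ube2c at -3.11 ± 0.57 (adjusted p = 2.214e-05), Ccnb2 at -2.67 ± 0.75 (adjusted p = 0.03177), Birc5 at -1.84 ± 0.50 (adjusted p = 0.02227) and Stmn1 at -1.68 ± 0.38 (adjusted p = 0.002011), and their part in the other differences was not tested. Ube2c was lower in 3 libraries, Ccnb2 in 5, Birc5 in 2 and Stmn1 in 4, and Birc5 and Stmn1 were each higher in 1. These falls were largest in splenic B220+2NBDG-, where Ube2c stood at 17.4 CPM in the 19 cells with Cox6a2 and 157 in those without. Elsewhere none of these cell cycle genes passed 12.1 CPM. Among members other than Cox6a2, Uqcrq rose by 0.36 and Ndufa4 fell by 0.36, and the 12 mitochondrial members were all below 0 with 0 called (median -0.16; 4 of 13, counting mt-Atp8, had an unadjusted p under 0.05). Cells with a Cox6a2 UMI were deeper in 4 of 5 libraries, with medians of 4493 to 6319 UMIs outside immunoglobulin genes against 3444 to 6501. The part of depth was not tested. The genes named here that are no members were chosen after their values were seen, and no list was tested.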
